A study of Caenorhabditis elegans with 2 samples.

Results

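The AHR-1 and HIF-1 pathway genes are 8 protein-coding genes of *C. elegans*, taken by name from the 19973 coding genes on the nuclear chromosomes. They are ahr-1, aha-1, cky-1, hif-1, egl-9, vhl-1, rhy-1 and cysl-1. Binding of tagged AHR-1 at them was read from chromatin immunoprecipitation sequencing (ChIP-seq) of strain OP562, whose genotype is unc-119(tm4063) III with the transgene wgIs562. This line stably expresses AHR-1 with GFP and FLAG fused to its C terminus, and an anti-GFP antibody was used for the precipitation. Hermaphrodite late embryos were collected whole, 3.5 h after egg bleaching, so all cell types of the embryo are mixed and a signal from a few cells is diluted. There was 1 group with 2 biological replicates, an untagged strain was not analysed here, and both replicates carry the transgene and the unc-119 mutation. The transgene is 1 line, it adds copies of ahr-1 to the genome, and the labels do not state its length, its copy number or whether the endogenous ahr-1 is intact.

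AHR-1 is the worm aryl hydrocarbon receptor, a bHLH-PAS transcription factor that binds DNA as a dimer with AHA-1, the worm ARNT. HIF-1, the hypoxia-inducible factor, uses the same partner, so both factors recognise closely related cores, GCGTG for the AHR dimer and ACGTG or GCGTG for the HIF dimer. HIF-1 is kept low in normal oxygen: EGL-9 hydroxylates it on proline, and VHL-1 then directs it to ubiquitination and degradation. RHY-1, a predicted membrane acyltransferase, represses HIF-1 upstream, and CYSL-1, related to cysteine synthases, binds and inhibits EGL-9. CKY-1 is another bHLH-PAS protein of the same family. In the worm, AHR-1 is known for its part in the fate and wiring of certain neurons, and EGL-9 and HIF-1 for responses to low oxygen and hydrogen sulfide.

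The reference DNA under the 5 pooled regions that hold GCGTG near their summit, at genes other than aha-1, is shown first. They include the 4 strongest regions at the 8 genes. The vhl-1 region, the only one in the pooled list at that gene, is shown beside them as one with no core. Each stretch reaches 100 bp to each side of the summit, the position of highest signal in a region, except at cky-1, where it ends before an untranslated part of hrg-7. The sequences are from the RefSeq genome of build WBcel235 (ce11), and capitals mark GCGTG or ACGTG read on either strand. The first egl-9 line lies upstream of the gene and the second downstream of it.
cysl-1 (chrX:9958696-9958896, plus strand): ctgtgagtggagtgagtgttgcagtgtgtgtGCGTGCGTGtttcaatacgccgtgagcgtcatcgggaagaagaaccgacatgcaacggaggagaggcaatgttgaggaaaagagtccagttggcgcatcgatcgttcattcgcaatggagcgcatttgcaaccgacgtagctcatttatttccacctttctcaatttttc
hif-1 (chrV:20789189-20789389, plus strand): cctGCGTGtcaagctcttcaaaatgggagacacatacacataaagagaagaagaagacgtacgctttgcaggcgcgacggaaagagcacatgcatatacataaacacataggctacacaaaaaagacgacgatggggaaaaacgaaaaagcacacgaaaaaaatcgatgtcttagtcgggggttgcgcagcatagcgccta
egl-9 (chrV:10466547-10466747, plus strand): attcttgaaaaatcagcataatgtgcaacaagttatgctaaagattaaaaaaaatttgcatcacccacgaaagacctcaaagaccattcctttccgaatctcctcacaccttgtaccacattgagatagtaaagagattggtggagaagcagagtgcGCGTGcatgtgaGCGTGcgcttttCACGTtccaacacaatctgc
egl-9 (chrV:10478257-10478457, plus strand): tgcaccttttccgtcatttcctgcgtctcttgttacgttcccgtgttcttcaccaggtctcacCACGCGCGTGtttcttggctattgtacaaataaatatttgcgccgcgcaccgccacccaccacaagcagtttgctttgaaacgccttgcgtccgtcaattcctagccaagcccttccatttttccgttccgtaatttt
cky-1 (chrV:12743914-12744107, plus strand): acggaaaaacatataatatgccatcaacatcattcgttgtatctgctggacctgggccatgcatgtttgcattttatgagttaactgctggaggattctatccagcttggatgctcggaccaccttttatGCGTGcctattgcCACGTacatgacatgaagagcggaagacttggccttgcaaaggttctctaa
vhl-1 (chrX:11306581-11306781, plus strand): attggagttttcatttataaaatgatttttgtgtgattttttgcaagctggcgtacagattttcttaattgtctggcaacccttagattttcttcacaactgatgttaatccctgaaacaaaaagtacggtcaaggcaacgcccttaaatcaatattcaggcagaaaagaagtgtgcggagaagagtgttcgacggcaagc

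None of the 8 genes had a peak that passed the reproducibility threshold. In the list thresholded by IDR, a method that keeps regions ranking alike in the replicates, 0 of 8 genes had a region in the gene body or within 5000 bp on either side, and 7.18% of all coding genes did. The pooled and replicate lists are relaxed: the authors deposited them as peaks and background together, the input to IDR, so a listed region need not be a peak. In the list called on both replicates pooled, every gene had at least 1 region by the same rule, and so did 77.1% of coding genes. Regions of the pooled list that overlapped a region of both replicate lists by at least 1 bp were found at 6 of the 8 genes, the exceptions being vhl-1 and rhy-1, against 55.4% of coding genes. In the list of replicate 1, 7 genes had a region (all but vhl-1), against 90.9% of coding genes, and in that of replicate 2 all 8 had one, against 91.8%. Most coding genes thus had a region nearby in every list but the IDR list.

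Altogether 30 pooled regions lay at the 8 genes, each 444 bp wide, and some overlapped each other, leaving 25 separate stretches. Their signal, a value from the authors' peak caller on a scale of its own in each list, ran from 27.0 to 62.9 with a median of 33.1. Over all 13858 pooled regions the median was 32.8 and the lowest IDR peak had 69.2. Of the 30, 16 were in the stronger 0.5 of the pooled list and 4 in its strongest 1385. Their −log10 q values ran from 0.0193 to 1.47, all below the 1.94 of the weakest IDR peak.

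**Figure D1:**
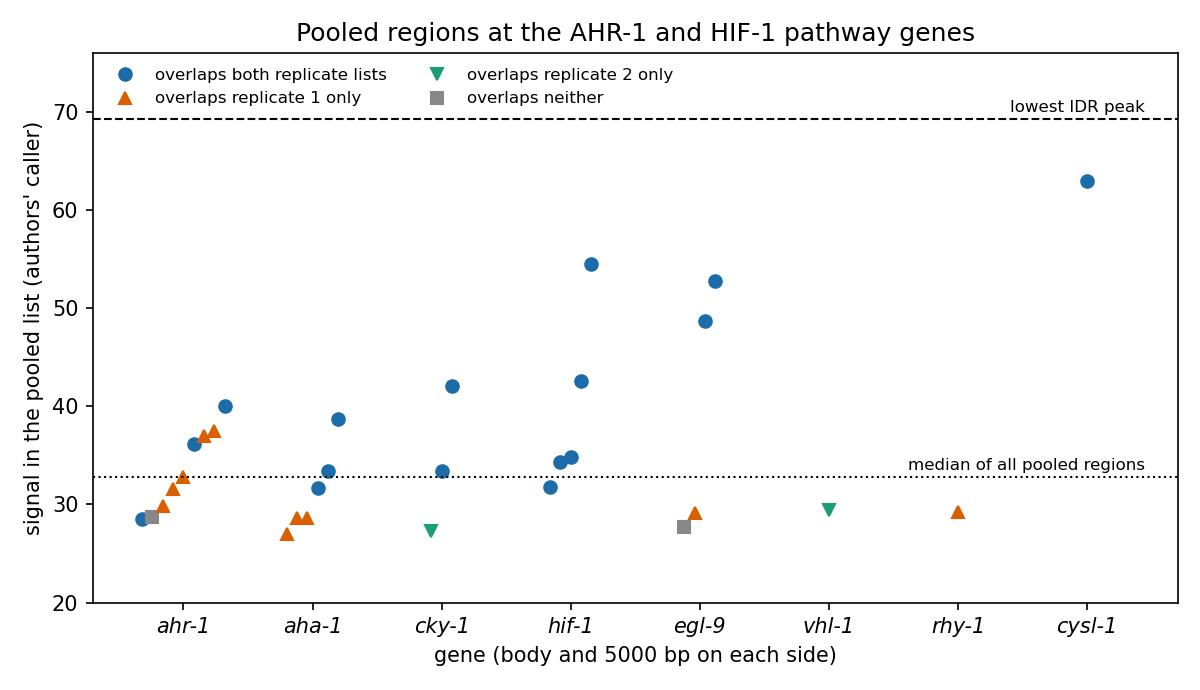
Signal of each pooled region (vertical axis, on the caller's scale) at the 8 genes (horizontal axis), with marker shape and colour for the replicate lists it overlaps. The 4 regions above 45 lie at hif-1, egl-9 and cysl-1, and all 30 lie under the dashed line at 69.2, the weakest IDR peak.

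At ahr-1 itself (9522550 to 9531132 on the plus strand of chromosome I, 13 exons) 9 pooled regions were listed, the largest number of the 8 genes. The strongest had its summit in coding exon 4, the exon that follows the gene's longest intron, at 9527682 to 9528125. It had a signal of 39.99 (rank 3048) in the pooled list, 19.4 (rank 12002) in replicate 1 and 18.5 (rank 3220) in replicate 2. It stood near the middle of the replicate 1 list and in the upper part of the replicate 2 list. The region in the promoter, at 9521525 to 9521968, lay 803 bp upstream of the gene's first 5′ end, with a pooled signal of 36.1 (rank 4664). It had a signal of 21.7 (rank 8148) in replicate 1 and 20.2 (rank 2191) in replicate 2. One more region with support in both replicates lay in the intron between exons 3 and 4, at 9525228 to 9525671, and was weak, with a pooled signal of 28.5 (rank 11278).

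The other 6 regions at ahr-1 had no partner in replicate 2. One, at 9526932 to 9527375 (signal 28.7), overlapped neither replicate list and had its summit in a coding exon of cylc-2, a gene on the opposite strand inside the same intron. A pair that overlap each other lay in coding exons of set-32, the upstream neighbour that encodes a SET-domain protein, at 9520014 to 9520758 (signals 32.8 and 31.6). Another lay 374 bp beyond the 3′ end of ahr-1, at 9531284 to 9531727 (signal 29.9). The last pair lay in the 5′ untranslated part of C41G7.7 at 9535102 to 9535869 (signals 36.97 and 37.52). In replicate 1 the strongest region at the locus was the one past the 3′ end, with 31.0 (rank 1753). Replicate 1 also listed a region in the first intron, at 9523590 to 9524039 with a signal of 29.4 (rank 2248), that neither other list held. Exons make up 21.8% of the gene body, and of the 3 pooled summits inside the body 1 was in an exon of ahr-1.

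**Figure D2:**
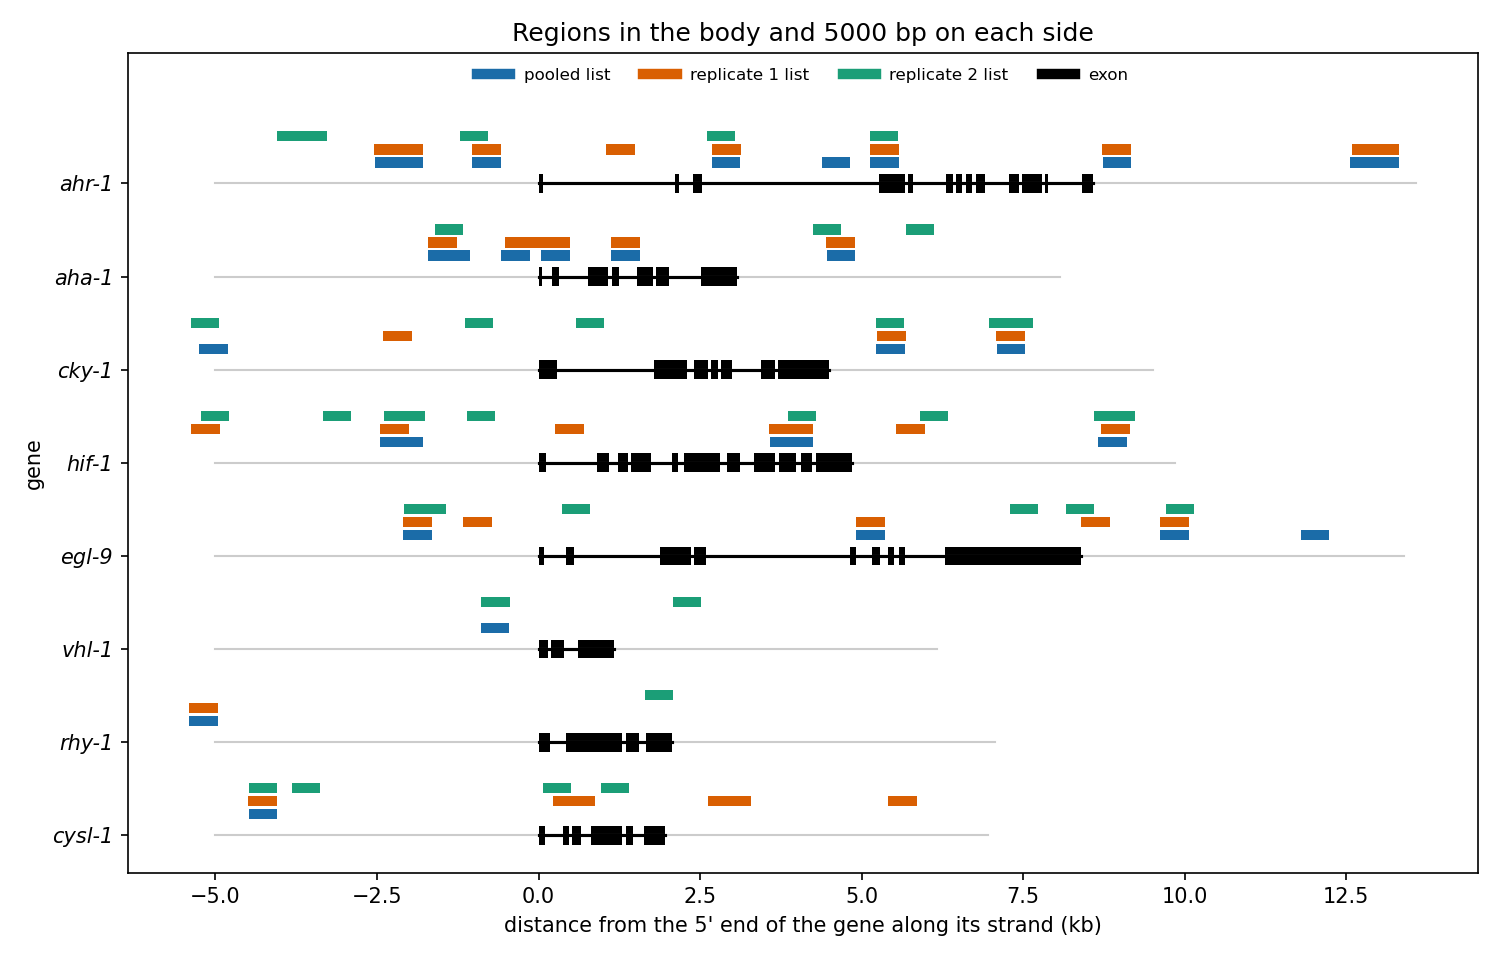
Regions of the pooled, replicate 1 and replicate 2 lists (coloured bars) over each gene and 5000 bp on each side, drawn by distance from the 5′ end of the gene along its strand (horizontal axis, kb; black boxes are exons of any transcript, and grey lines the flanks). Bars stacked over one place mark regions called in more than 1 list, as at exon 4 of ahr-1, while cysl-1 has bars over its body in both replicate lists and none in the pooled list.

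The pooled list was dense at ahr-1, but this rested largely on replicate 1. The locus had 0.484 regions per kb in the pooled list, 5.09 times the median of coding gene loci (0.0951), and 1.38% of coding loci were at or above it. In replicate 1 the density was 0.484 per kb, 2.46 times the median for that list, with 6.66% of coding loci at or above it. In replicate 2 it was 0.269 per kb, 1.25 times that list's median, with 36.4% of loci at or above it. At aha-1 the values were 0.459 per kb in the pooled list, 0.459 in replicate 1 and 0.229 in replicate 2, or 4.83, 2.33 and 1.07 times the median of each list. Of the pooled regions, 5 of 9 at ahr-1 and 3 of 6 at aha-1 overlapped replicate 1 alone, against 28.3% of all pooled regions.

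The dense stretch reached past ahr-1 on both sides in the pooled list. Counted by summits, the gene body had 0.350 per kb, the 20 kb upstream 0.40 and the 20 kb downstream 0.450, against 0.138 per kb over the genome. From 20 to 60 kb the density was 0.050 per kb upstream and 0.175 downstream. In replicate 1 the 20 kb upstream and downstream had 1.75 and 1.97 times that list's genome mean, and in replicate 2 they had 2.15 and 1.29 times. The gene body in replicate 2 was at 1.00 times the mean. Around unc-119, the gene mutated in the strain, the pooled density was 0.318 per kb in the body, 0.150 in the 20 kb upstream and 0.250 in the 20 kb downstream. From 20 to 60 kb it was 0.275 upstream of unc-119 and 0.250 downstream. Both replicates carry the extra copies of ahr-1, and the part of those copies in these densities was not tested. Whether the transgene also adds copies of unc-119 was not tested either, so unc-119 is not shown to be a locus without added copies.

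**Figure D3:**
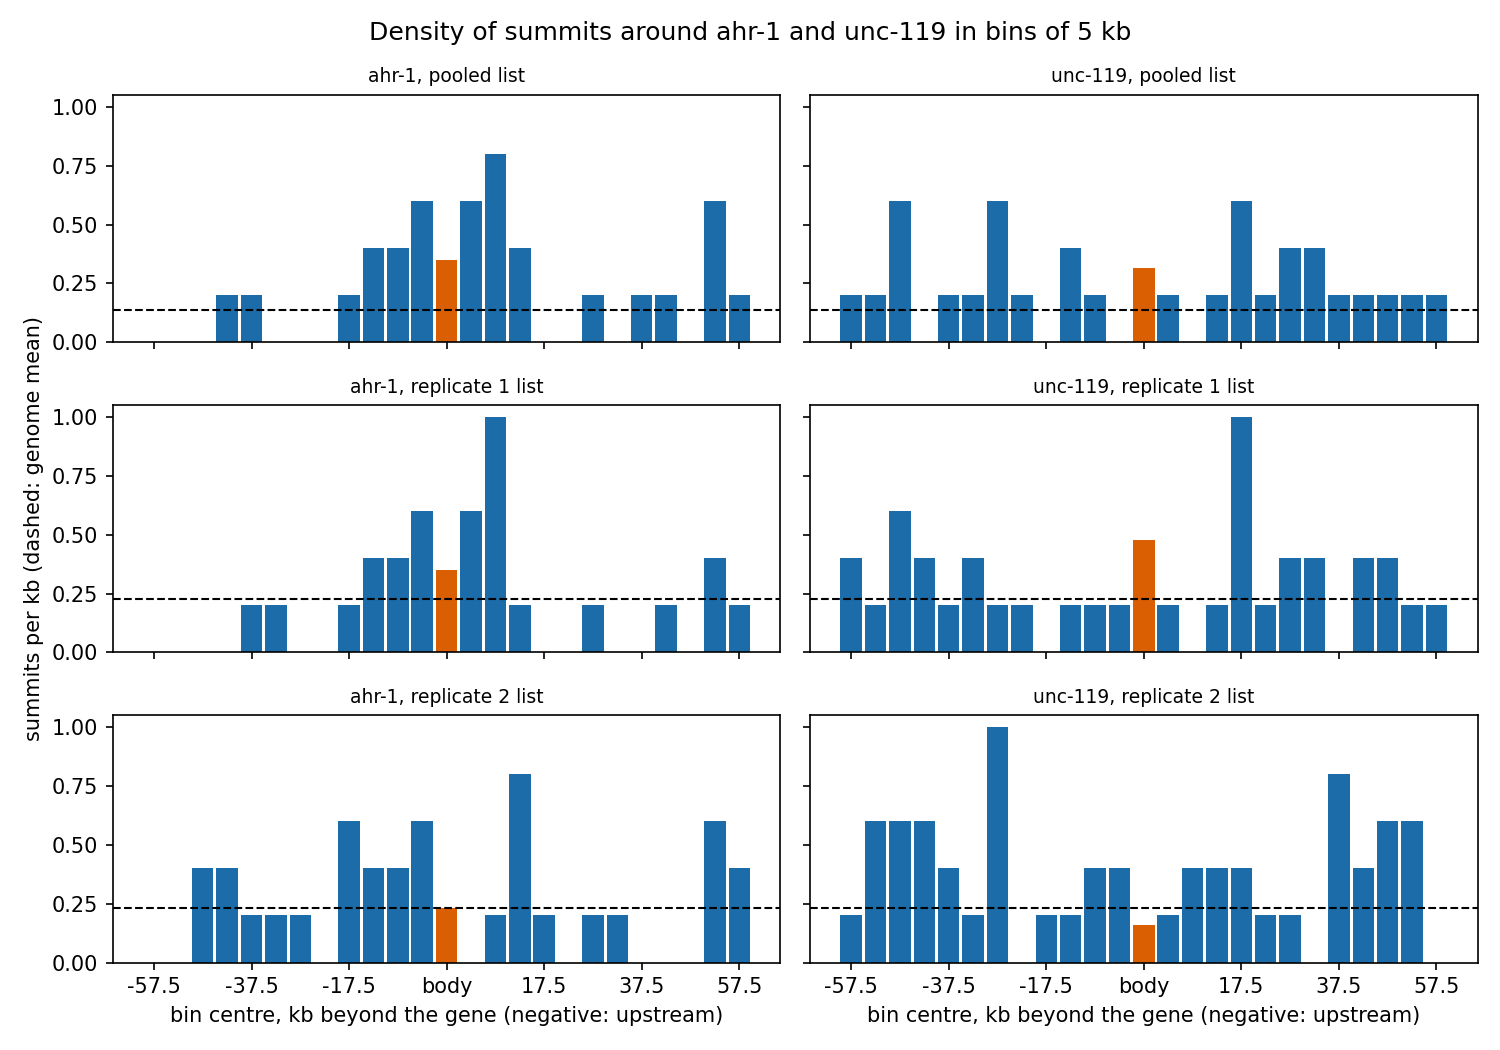
Summits per kb in the gene body (orange) and in bins of 5 kb out to 60 kb on each side (blue) of ahr-1 (left) and unc-119 (right), in the pooled, replicate 1 and replicate 2 lists, with the genome mean of each list as a dashed line. Each bar of 0.2 stands for 1 summit in a bin, and the bins within 15 kb of ahr-1 are all above the mean in the pooled list.

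The gene of the dimer partner, aha-1 (10193925 to 10196997 on the minus strand of chromosome I), had 6 pooled regions, of which 3 overlapped both replicates. Its strongest, at 10192096 to 10192539 with a signal of 38.7 (rank 3561), lay in a coding exon of lid-1, 323 bp downstream of that neighbour's 5′ end. It had 26.5 in replicate 1 and 13.3 in replicate 2, and GCGTG began 32 bp before its summit. The other regions shared by both replicates, at 10198052 to 10198700, lay over Y106G6E.1 (signals 31.7 and 33.4), and the single replicate 2 region there was weak, with rank 22176 of 23313. Inside aha-1 were a region in exon 2, 260 bp from the 5′ end (signal 28.7, and 29.9 with rank 2084 in replicate 1), and one in an intron (signal 28.6). Replicate 2 had neither. One more, at 10197130 to 10197573, had its summit 355 bp upstream of aha-1 and 31 bp inside the divergent gene C25A1.15, with GCGTG 2 bp before the summit and a signal of 27.0, among the lowest in the pooled list (rank 13446).

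At hif-1 (20780407 to 20785260 on the plus strand of chromosome V) all 5 pooled regions overlapped both replicates, the only gene of the 8 with more than 1 region where this held. The strongest, at 20789067 to 20789510, had a signal of 54.5 (rank 884) in the pooled list, 31.6 (rank 1595) in replicate 1 and 24.6 (rank 1008) in replicate 2. It lay 4029 bp past the 3′ end of hif-1, in an intron of Y44A6D.1 and 213 bp upstream of the 5′ end of tpan-1, so hif-1 is not the gene nearest to it. Next was a region 2235 bp upstream of hif-1, between genes, at 20777950 to 20778393, with a signal of 42.6 (rank 2296). It had 20.3 (rank 10412) in replicate 1 and 23.1 (rank 1289) in replicate 2. An overlapping region beside it (signal 31.8) held the E-box CACGTG, which reads ACGTG on both strands, 74 bp before its summit. Within the gene, a pair of regions covered exon 7 and the intron after it, at 20783988 to 20784651 (signals 34.3 and 34.9). The promoter window of hif-1, 1500 bp before to 500 bp after any of its 5′ ends, held no pooled summit. By density the locus had 0.337 regions per kb in the pooled list, 0.471 in replicate 1 and 0.606 in replicate 2, or 3.54, 2.39 and 2.82 times the median of each list.

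**Figure D4:**
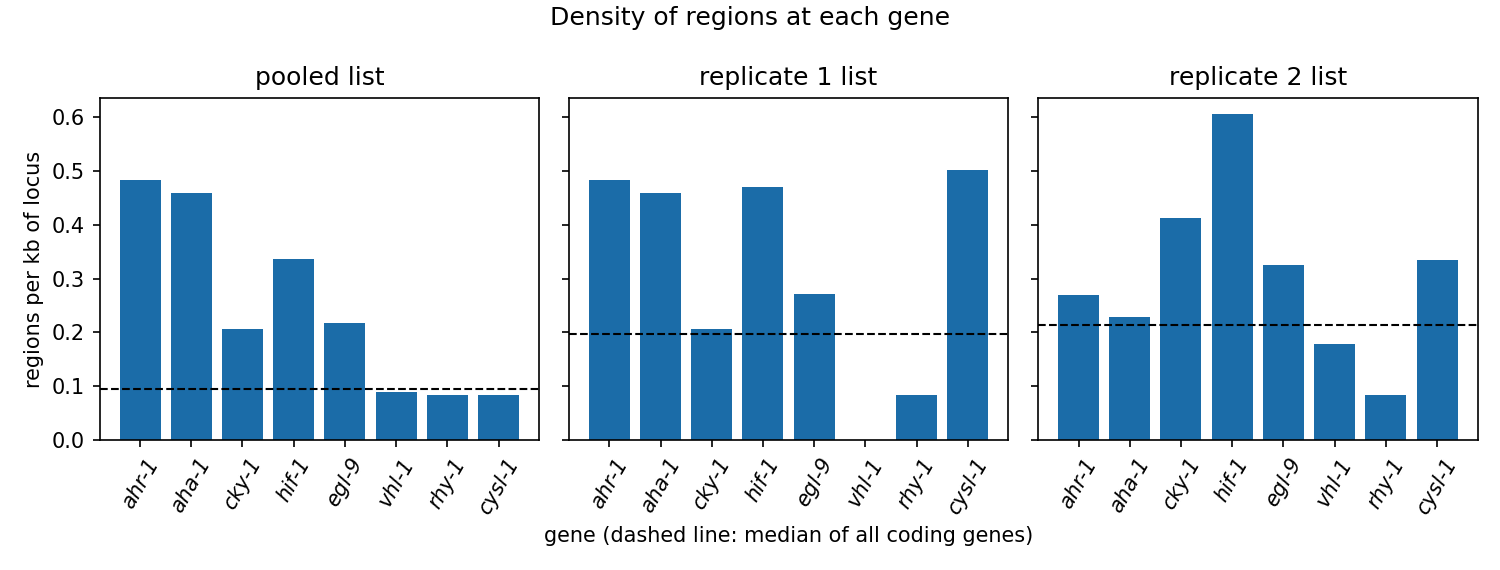
Regions per kb of locus (gene body and 5000 bp on each side) for the 8 genes in the pooled, replicate 1 and replicate 2 lists, with the median of all coding genes as a dashed line. The bars of ahr-1 and aha-1 stand far above the line in the pooled and replicate 1 lists and nearer to it in the replicate 2 list. That of hif-1 is far above it in all 3. Those of egl-9 (2.29, 1.38 and 1.52 times the median) and cky-1 (2.17, 1.05 and 1.93 times) are also above it in all 3. The tallest replicate 1 bar is that of cysl-1 (0.502 per kb), which is below the line in the pooled list.

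The prolyl hydroxylase gene egl-9 (10468517 to 10476915 on the plus strand of chromosome V) had 2 of the 4 strongest regions. That at 10466425 to 10466868 lay between genes, 1870 bp upstream of egl-9, which has the nearest coding 5′ end. Its signal was 52.8 (rank 985) in the pooled list, 28.5 (rank 2606) in replicate 1 and 21.2 (rank 1801) in replicate 2. In the sequence shown above it has GCGTG at 2 places, 57 and 69 bp after the summit, and ACGTG on the minus strand 81 bp after it, and it overlaps the ncRNA genes F22E12.9 and F22E12.10. The other, at 10478135 to 10478578, lay 1442 bp past the 3′ end of egl-9 and 207 bp upstream of crp-1, which encodes a small GTPase, over the ncRNA gene Y32F6B.7. It had a signal of 48.7 (rank 1309) in the pooled list, 31.2 (rank 1703) in replicate 1 and 15.0 (rank 7528) in replicate 2. A pair of cores back to back, one on each strand, form CACGCGCGTG there, with their first bases 37 and 32 bp before the summit. Of the weaker regions, one lay in an intron 326 bp downstream of an internal 5′ end of egl-9 (signal 29.2), and one in an intron of crp-1 (signal 27.7) overlapped neither replicate list.

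The remaining regulators of HIF-1 had 1 pooled region each. For cysl-1 (9952579 to 9954533 on the minus strand of chromosome X) it was the strongest of all 30, at 9958574 to 9959017, with a signal of 62.9 (rank 607), 32.5 (rank 1430) in replicate 1 and 29.0 (rank 587) in replicate 2. The weakest IDR peak has rank 479. This region lay 4263 bp upstream of cysl-1 and 164 bp upstream of ZC506.1, whose 5′ end is the nearest, and its cores overlap as GCGTGCGTG from 69 bp before the summit. Both replicates listed further regions over the body of cysl-1 that the pooled list lacks, at ranks 6915 and 9952 in replicate 1 and at ranks 15159 and 20165 in replicate 2. For vhl-1 (11307356 to 11308518 on the plus strand of chromosome X) the region lay 675 bp upstream of the 5′ end, at 11306459 to 11306902. Its signal was 29.4 (rank 10160) in the pooled list and 16.996 (rank 4555) in replicate 2, and replicate 1 listed no region anywhere at the gene. For rhy-1 (9161379 to 9163448 on the plus strand of chromosome II) it lay 5186 bp upstream, beyond the window but for its edge, at 9155971 to 9156414. Its signal was 29.2 (rank 10462) in the pooled list and 17.9 (rank 15369) in replicate 1, and replicate 2 listed a different region, in exon 4, with a signal of 14.8.

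At cky-1 (12736703 to 12741205 on the plus strand of chromosome V), the remaining bHLH-PAS gene, no pooled region touched the gene. Its 3 regions lay over neighbours, the strongest in a coding exon of hrg-7, which encodes a secreted protease linked to heme signalling, at 12743792 to 12744235. That region had a signal of 42.1 (rank 2435) in the pooled list and 27.4 (rank 3123) in replicate 1, and was near the bottom of replicate 2 with 10.9 (rank 19344). It held GCGTG 30 bp and ACGTG 43 bp after the summit, in the coding exon of hrg-7. A region at the start of hrg-7 had a signal of 33.4, and one over R11D1.10 had 27.3 and was in replicate 2 alone of the replicate lists. In replicate 2 there was also a region 926 bp upstream of cky-1 (signal 10.9) and one in its first intron (signal 11.9).

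By position, most summits lay outside the 8 genes, but at each gene the flanks together are longer than the body. Of the 30 pooled summits, 8 were inside a gene of the 8, and for 11 that gene had the nearest coding 5′ end. Coding exons of any gene, neighbours included, held 11 summits (36.7%), against 20.99% of all pooled summits. The loci here are centred on genes and the whole list is not. Introns held 7 (23.3% against 36.2%) and the 1500 bp upstream of a coding gene 4 (13.3% against 20.1%). In replicates 1 and 2 the upstream share at the 8 genes was 16.2% and 25%. For coding exons it was 35.1% and 30.6%, and for introns 24.3% and 16.7%. The same shares over the whole replicate lists are not given. The promoter window ran from 1500 bp upstream to 500 bp downstream of any coding 5′ end of a gene. In it, 4 of the 8 genes had a pooled summit (ahr-1, aha-1, egl-9 and vhl-1), against 29.9% of coding genes. That of egl-9 was at an internal 5′ end (rank 10489) and overlapped replicate 1 alone. The vhl-1 summit (rank 10160) was in a region that overlapped replicate 2 alone. None of the 8 genes had an IDR summit in the promoter window, against 2.58% of coding genes. Within 500 bp upstream and 200 bp downstream only aha-1 kept a pooled summit. The share of all coding genes in this smaller window is not given, so the drop is not shown to be particular to these genes.

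Within 100 bp of the summit, the AHR core was commoner at stronger regions over the whole list, and here too. The share over the whole list within 50 bp is not given. GCGTG was within 100 bp of 7 of the 30 summits (23.3%), against 16.9% of all pooled regions, 32.2% of the strongest 1385 and 40.3% of IDR peaks. The 4 regions among the strongest 1385, at cysl-1, hif-1 and egl-9, all held it within 100 bp. The nearest core began 65 bp before the summit at cysl-1 and 97 bp before it at hif-1. At egl-9 it began 57 bp after the summit of the upstream region and 32 bp before that of the downstream one. Within 50 bp of the pooled summit only the region downstream of egl-9 kept it, beside weaker regions at aha-1 and cky-1. Summits differed between lists. In replicate 2 the hif-1 region (rank 1008) had GCGTG 31 bp before its summit, but in replicate 1 (rank 1595) it had none within 100 bp. Upstream of egl-9, replicate 2 also listed an overlapping region (rank 2142) with GCGTG starting at its summit. The region downstream of egl-9 had none within 100 bp in replicate 2 (rank 7528). None of the 9 pooled regions at ahr-1 held GCGTG or ACGTG within 100 bp of the summit. The region that replicate 1 alone listed in the first intron of ahr-1 held GCGTG 7 bp before and 13 bp after its summit. ACGTG was at 3 summits (10% against 17.8%), at hif-1, egl-9 and cky-1, and the longer TNGCGTG was at none (4.68% of all pooled regions). A match of letters does not show a bound site.

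Further genes around the pathway, 26 of 27 listed names matched in the annotation, were read by the same rule. Of these 26, 23 had a pooled region (77.1% of coding genes did) and 17 had one shared by both replicates (55.4%). A pooled summit lay in the promoter window of 10 (29.9%), and 2 had an IDR region in the body or flanks (7.18%). The 26 genes hold daf-41 and cdc-37, of the HSP90 chaperone that carries bHLH-PAS proteins, and both had pooled regions. The unmatched name was daf-21, listed for the same chaperone, so that gene was not read. The 4 genes of the VHL ubiquitin ligase (cul-2, elc-1, elb-1 and rbx-1) had 12 pooled regions and no IDR peak. Of 9 genes listed as an AHR-1 partner or as neuronal genes, 8 had a pooled region and mec-3 had none. Of 8 genes known to respond to HIF-1, 6 had a pooled region, while nhr-57 and ftn-1 had none. The IDR peak at cysl-2, another gene of the cysteine synthase family, had a signal of 129.8 (rank 128) at 14496840 to 14497283 on chromosome II. It lay 2611 bp upstream of cysl-2, over the ncRNA genes K10H10.11 and K10H10.14, with the nearest coding 5′ end that of dhs-8, 964 bp away. The IDR peak at ldb-1, a LIM-domain binding cofactor, lay in an intron 1642 bp downstream of the nearest ldb-1 5′ end, at 11031118 to 11031561 on chromosome X (signal 73.6, rank 438), over the ncRNA gene F58A3.6. It had rank 93 in replicate 2 and rank 1516 in replicate 1. The next strongest were at lin-42, which encodes the worm Period protein, in a coding exon with a signal of 68.6 (rank 487), and at the soluble guanylyl cyclase gene gcy-35, over its neighbour T04D3.5 with a signal of 60.8 (rank 655). lin-42 had 12 pooled regions and 9 in its promoter windows, over a locus of 29.1 kb.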

How the data were processed

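Peak lists of AHR-1-GFP ChIP-seq were used: 1 list for each of 2 biological replicates, the list from both pooled and the IDR list, all on build ce11 per the deposited file descriptions. By their deposited names, all but the IDR list hold peaks and background together, as input to IDR. The authors called regions against a control library. The sources used here name no aligner, caller, IDR threshold or depth. Control reads and coverage tracks are not analysed here. A region's deposited signal is the authors' value, as is its deposited −log10 of q. The signal has its own scale in each list, so ranks were compared only within a list. How reads mapping to several places were counted is not given.

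Regions overlapping each gene or its 5000 bp flanks by at least 1 bp were counted in Python 3.11.15 with pandas 2.3.3 and numpy 2.4.6, against Ensembl release 115 and the RefSeq genome of WBcel235. Counting and core searches were checked on simulated data. With 1 group and no second condition, no test was made, and counts stand beside the same counts over all coding genes. The 8 genes, the wider list and the rules were chosen with earlier results of these data known. Named regions are each gene's strongest, every pooled region at ahr-1 and those shared by both replicates, with the wider list's IDR genes and its 4 strongest. Others were chosen after their values were seen.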

Additional observations from a re-analysis of the deposited data

How the results depend on the processing

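The count of 0 genes with an IDR region stayed the same for the gene body alone and for flanks of 2000 and 10000 bp. Counts at the settings in this section stand without the same share over all coding genes or all regions. They show how far each count moved, not whether the 8 genes differ from others. With the gene body alone, 4 genes had a pooled region and the pooled regions numbered 8. With flanks of 10000 bp they numbered 47, and in the stronger 0.5 of the list 16. Replicates taken alone gave 36 to 37 regions. In replicate 1 the body alone held 13 and flanks of 10000 bp 58, and in replicate 2 the body alone held 10. The narrower promoter window left 1 gene. GCGTG was at 4 pooled summits within 50 bp, and of the strongest regions only the one downstream of egl-9 was among them. ACGTG was at 1 within 50 bp and 8 within 250 bp, and TNGCGTG at 2 within 250 bp. Of 54 alternative values for single genes, 24 moved by over 1.5 times. No paired analysis was possible because there was 1 group. With read depth unknown, no interval could be given, and an unlisted region is not shown to be unbound.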
